A study of Mus musculus with 9 samples.

Results

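Adamts1 and 8 related genes were followed through RNA sequencing of mouse macrophages from 3 organs: the proteases Adam8, Adam10, Adam17, Mmp2, Mmp9, Mmp12 and Mmp14, and the inhibitor Timp2. These 9 rows of the 15434 genes in the deposited table were taken by symbol. They had been selected on their measured values in these libraries, so their levels and folds are given as a description, with no test. The study sorted macrophages from the testis, the epididymis (the duct in which sperm mature) and the brain, where they are microglia, with 3 libraries per organ. All came from C57BL/6J mice, with no treatment, no culture and no engineered allele named in the labels, which give no age. The series title concerns the developmental origin of testicular and epididymal macrophages, and the 3 pairwise comparisons of organs used here ask how the same genes differ by site.

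The labels give 1 mouse number per organ, 1 for testis, 2 for epididymis and 3 for brain. Organ and mouse number therefore cannot be told apart. The labels do not say that the 3 libraries of an organ came from separate animals, so a p-value here speaks of the spread among libraries, whether technical or between animals. The sort kept live cells carrying CD45, CD11b and F4/80 and lacking Ly6c and CD11c, after 40 minutes in collagenase and DNase. Libraries held 2727092 to 4458688 reads assigned to genes. All 8 genes for the sort gate and general macrophage identity (among them Ptprc, Itgam, Adgre1 and Csf1r) were detected in every organ, with summed values of 10825 to 13177 normalised reads in testis, 19048 to 22564 in epididymis and 29485 to 32352 in brain. A normalised read is a read divided by a factor of its library, and 1 read was worth 0.808 to 1.11 of them. In bulk libraries, fewer cells of a type and less RNA per cell cannot be told apart.

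The proteases are zinc enzymes that act outside the cell or at its surface. ADAM proteins are membrane-anchored and release the outer parts of other membrane proteins, such as cytokines and receptors, which is called shedding. ADAMTS proteins are secreted relatives with thrombospondin-type repeats that cut matrix proteoglycans, and matrix metalloproteases (MMPs) cut collagens, elastin and other matrix proteins. All are made with a blocking prodomain, and tissue inhibitors of metalloproteases (TIMPs) occupy the active site of the mature enzymes. Macrophages use both groups, the ADAMs to set free TNF and other surface proteins and the MMPs to remodel tissue.

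The enzymes share the site that binds the catalytic zinc, and its coding sequence is shown because it is what makes 8 of the 9 genes proteases of one kind. The sequences below are from GENCODE M21 transcripts on GRCm38, 5′ to 3′ on the coding strand, with the codons of the 3 histidines and of the catalytic glutamate in capitals.
Adamts1, codons 402 to 412: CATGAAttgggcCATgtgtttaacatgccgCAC
Adam8, codons 329 to 339: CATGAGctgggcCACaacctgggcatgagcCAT
Adam10, codons 384 to 394: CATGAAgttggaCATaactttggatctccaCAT
Adam17, codons 405 to 415: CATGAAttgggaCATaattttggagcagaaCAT
Mmp12, codons 222 to 232: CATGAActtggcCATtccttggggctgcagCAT
Mmp14, codons 239 to 249: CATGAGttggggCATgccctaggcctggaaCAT
The search found the site once in each of the 8 proteases, Mmp2 and Mmp9 included, and not in Timp2. It was present in 94 of 21605 protein-coding genes read (0.435%), of which 60 carry an ADAM, ADAMTS or MMP name. Over the 28 pairs of the 8 sites, between 17 and 27 of the 33 bases were identical. The search itself required histidine or glutamate at the codons in capitals, so part of this identity is by construction. The closest pairs were Mmp14 with Mmp2 at 27 bases and the sheddases Adam10 with Adam17 at 26. The cysteine switch, the prodomain motif that blocks the zinc of latent MMPs, was searched only in its MMP form (Pro-Arg-Cys-Gly-any-Pro-Asp). That form was found in 4 of 4 MMPs and in none of the other 5 genes. The search cannot show whether the ADAM or ADAMTS prodomains carry a switch of another form.

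Across the organs the 9 genes had 3 kinds of pattern. Adamts1 was high in brain, lower in testis and without a read in epididymis. Mmp14 and Adam17 were highest in epididymis, Mmp2 was lowest in testis and Adam8 was nearly absent from brain. Adam10, Mmp12 and Timp2 overlapped between all organs, and Mmp9 was at 0 in 7 of 9 libraries.

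**Figure D1:**
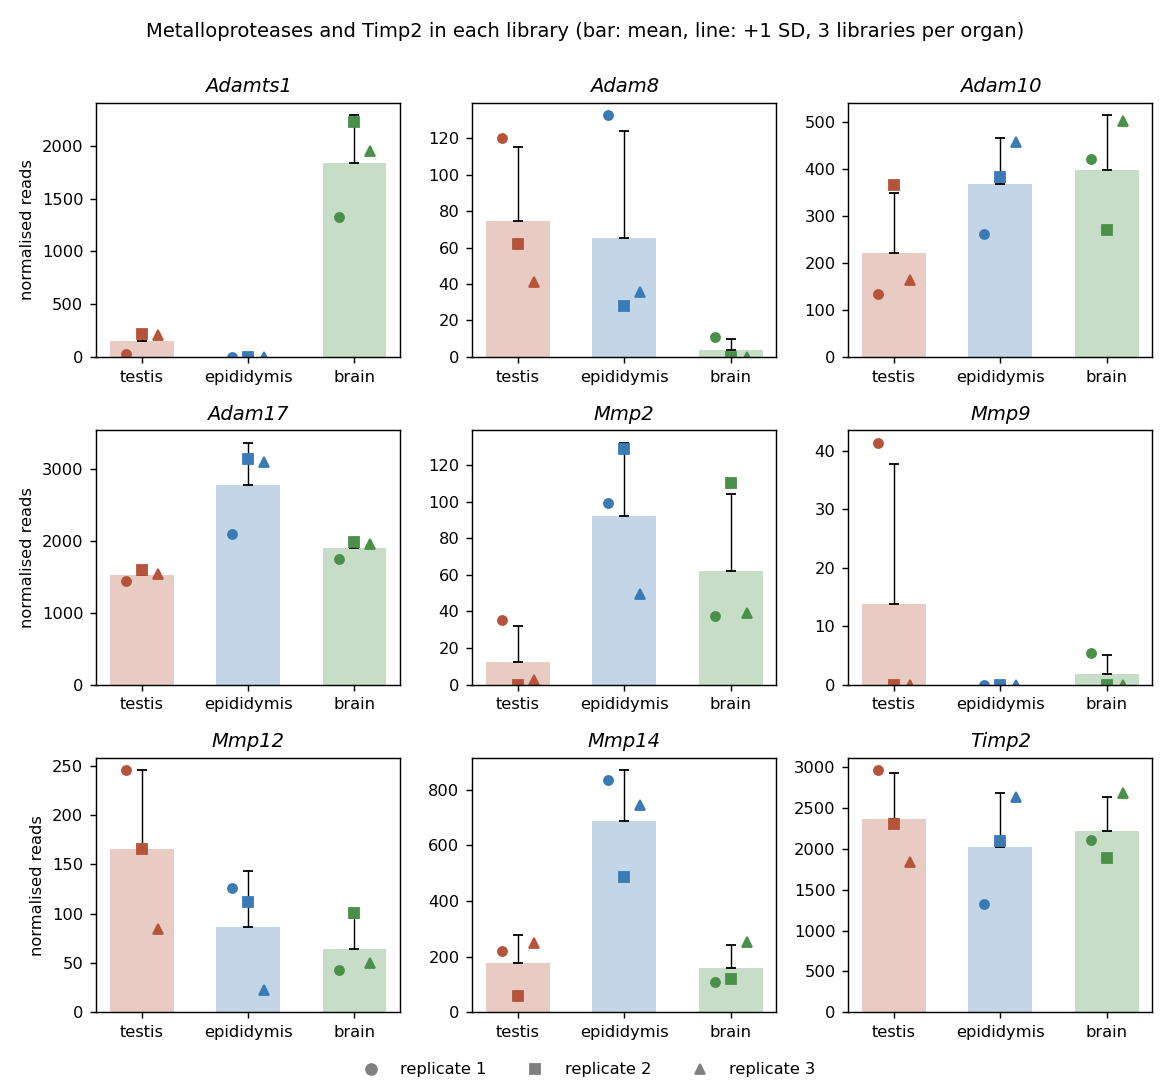
Normalised reads of the 9 genes (vertical axes, linear from 0, each with its own scale) in testis, epididymis and brain; points are single libraries, bars the mean of 3 and lines 1 SD upwards. Adamts1 stands at 1326 to 2222 in brain and at 0 in the 3 epididymis libraries, while Timp2 lies between 1331 and 2966 in all 9.

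Adamts1 encodes a secreted protease of versican and aggrecan. It lies on chromosome 16 from 85793827 to 85803113 on the minus strand (GRCm38, ENSMUSG00000022893.14). Its values were 25.9, 217 and 205 normalised reads in testis replicates 1, 2 and 3, 0 in each of the 3 epididymis libraries, and 1326, 2222 and 1948 in brain. No pair of organs overlapped, and testis replicate 1 stood 8.36-fold below the highest testis library. The testis mean was 149 ± 107 (SD, n = 3) and the brain mean 1832 ± 459, which is 12.3-fold higher. On the log2(value + 1) scale, a linear model fitted over all libraries gave a fold of testis against brain of -4.07 (SE 0.90), and -3.08 without testis replicate 1. On this scale adding 1 can shrink folds of low values, and a single low library can make a fitted fold larger than the ratio of means.

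The epididymis level can be given as a bound. Against a floor of 3 reads per library, the mean of Adamts1 was at least 51.0-fold higher in testis and at least 626-fold higher in brain than in epididymis. These bounds cover counting error in epididymis only, and the testis and brain levels enter as means. Testis replicate 1, at 25.9 normalised reads against a testis mean of 149, would give a much lower bound. Later folds given as at least a value are also of organ means. A gene was tested where 3 or more libraries reached 10 normalised reads, which left 11766 genes, among them all of the 9 but Mmp9. Of these, 352 had no read in any epididymis library, 493 had a brain mean of at least 1000 normalised reads, and Adamts1 was the 1 gene in both sets. The level of 1000 was set after the values were seen. The order of brain over testis over epididymis with no overlap was found in 34 tested genes.

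The spread of Adamts1 within testis was wide for its level. Of 4999 tested genes with a testis mean of at least 100 normalised reads, 119 (2.38%) had a larger ratio of highest to lowest testis library or a lowest value of 0. Fcgr1, the gene of an activating Fc receptor on the macrophage list, had a similar gap, at 17.6, 257 and 278 (chosen after its values were seen). Among the 8 tested members, testis replicate 1 was the highest testis library for Adam8, Mmp2, Mmp12 and Timp2, and the lowest for Adamts1, Adam10 and Adam17.

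Other cell types that can make ADAMTS1, and the stress of digestion, were followed through marker lists. The 6 endothelial genes in the table (Pecam1, Kdr, Flt1, Tie1, Egfl7 and Vwf) summed to 169 to 369 normalised reads in testis, 127 to 250 in epididymis and 343 to 534 in brain. Egfl7 was at 0 in epididymis and Vwf at 0 in brain, and none of the 4 tested endothelial genes passed limma, edgeR or DESeq2 in any comparison, with 0, 1 and 1 at an unadjusted limma p below 0.05. The 10 fibroblast and peritubular genes summed to 271 to 347 in testis, 48.2 to 202 in epididymis and 31.9 to 66.9 in brain, where Col3a1, Dcn, Myh11 and Mfap5 were at 0. The 21 immediate early and dissociation stress genes summed to 189755 to 200840 in testis, 68820 to 73883 in epididymis and 86685 to 139502 in brain. Their sum was highest in testis and Adamts1 was highest in brain, while both were lowest in epididymis. Brain replicate 1 was the lowest brain library for both. The 7 microglia genes summed to 602 to 1116, 4060 to 5862 and 15333 to 17190. They were highest in brain, as Adamts1 was, with epididymis above testis, the reverse of Adamts1. Genes of other cell types of the organs also differed. The 7 Leydig cell genes summed to 1432 to 3752 in testis, 29.1 to 201 in epididymis and 75.8 to 105 in brain, and the 8 spermatid genes to 763 to 1859, 422 to 692 and 4.44 to 32.8. The 4 Sertoli cell genes summed to 42.7 to 96.9, 58.2 to 193 and 51.9 to 107. The 6 neuron and macroglia genes summed to 188 to 566, 106 to 255 and 362 to 436, with 1 of 5 tested, Aqp4, called higher in brain against either organ. Like Adamts1, the endothelial sums and the neuron and macroglia sums were lower in epididymis than in brain with no overlap. Testis overlapped both other organs in these sums. The part of these cells and states in the Adamts1 values was not tested.

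The genes whose pattern was most like that of Adamts1 were also low in epididymis and highest in brain. By Pearson's r of log2(value + 1) over the 9 libraries, given as a description, the leading 5 were Otud1 (0.982), St3gal5 (0.975), Ocln (0.967), Themis (0.958) and Itpa (0.948). The 9 points share their organs, and a gene near 0 in 1 organ takes much of its r from that organ. Otud1, a deubiquitinase gene, stood at 32.8 ± 11.8 in testis, 0.303 ± 0.525 in epididymis and 158, 124 and 170 in the brain libraries. St3gal5, which makes the ganglioside GM3, stood at 57.3 ± 31.2, 1.03 ± 1.08 and 356 ± 31.5.

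**Figure D2:**
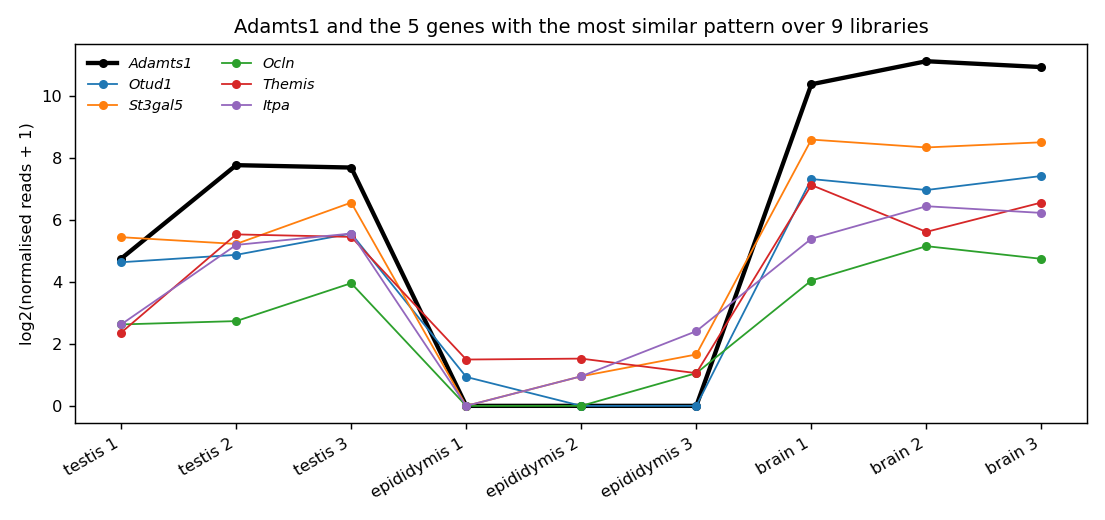
log2(normalised reads + 1) in each of the 9 libraries (horizontal axis) for Adamts1 (black) and the 5 genes with the highest Pearson's r to it. All 6 lines drop in the epididymis libraries, and Adamts1 reaches 0 in all 3 of them; St3gal5 is at 356 ± 31.5 normalised reads in brain.

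The promoter of Adamts1 is printed because its gene had the largest differences between organs of the 9. The 250 bases before the RefSeq start are on GRCm38.p6, chr16:85803114-85803363, minus strand, 5′ to 3′, with GC boxes and the TATA box in capitals.
Adamts1 promoter: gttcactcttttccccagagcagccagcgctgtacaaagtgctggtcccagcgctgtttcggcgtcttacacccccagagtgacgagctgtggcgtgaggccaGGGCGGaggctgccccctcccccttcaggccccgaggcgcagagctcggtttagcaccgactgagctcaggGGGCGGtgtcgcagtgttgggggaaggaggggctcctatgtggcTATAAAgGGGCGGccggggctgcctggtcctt
It held 3 GC boxes (GGGCGG on either strand), 1 TATA box (TATAAA, 32 bases before the start) and 15 CpG dinucleotides, at 65.6% G and C. Of 32851 promoter windows of this length, 32.7% held a GC box and 12.4% a TATA box, and the median window had 6 CpG and 52.4% G and C. The AP-1 motif TGANTCA (in 6.75% of windows), the cyclic AMP response element TGACGTCA (1.55%), the PU.1 core GAGGAA (23.3%) and the NF-kB motif GGGANTTCC (1.43%) were searched on both strands, with overlaps between motifs allowed, and had no match in this window. A match or its absence describes these letters only.

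Mmp14 encodes a membrane-anchored collagenase that, together with TIMP2, activates the MMP2 proenzyme at the cell surface. Its values were 218, 56.5 and 250 normalised reads in testis, 835, 487 and 747 in epididymis, and 108, 118 and 253 in brain. All epididymis libraries lay above all others, and testis and brain overlapped. The epididymis mean of 689.8 ± 181 was 3.94-fold the testis mean (175 ± 104) and 4.31-fold the brain mean (160 ± 81.0). The fitted log2 fold was -2.20 (SE 0.53) for testis against epididymis, or -1.52 without testis replicate 2. It was 2.18 for epididymis against brain and -0.02 for testis against brain, the last of which was 0.66 without testis replicate 2.

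The Mmp14 promoter is shown for comparison with that of Adamts1, as the gene with the opposite standing in epididymis. It lies at chr14:54431348-54431597, plus strand, 250 bases before the RefSeq start on GRCm38.p6, with GC boxes in capitals.
Mmp14 promoter: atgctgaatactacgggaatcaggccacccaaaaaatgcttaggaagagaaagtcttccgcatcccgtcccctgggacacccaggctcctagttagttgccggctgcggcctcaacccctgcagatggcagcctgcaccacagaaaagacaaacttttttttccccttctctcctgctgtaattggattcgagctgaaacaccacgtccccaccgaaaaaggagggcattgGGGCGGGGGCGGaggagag
This window held 2 GC boxes and 10 CpG at 55.2% G and C, with no match to the other 5 motifs. The gene itself lies on chromosome 14 from 54431612 to 54445364. The list of epididymal epithelium genes was also highest in epididymis, at 479 to 541 normalised reads in sum for 8 genes, against 0 to 39.3 in testis and 0 in brain, and the part of such cells in the Mmp14 values was not tested.

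Mmp2 (chromosome 8 from 92827291 to 92853420) encodes gelatinase A, the enzyme that MMP14 activates. It was a low gene, at 35.2, 0 and 2.56 normalised reads in testis, 99.1, 129 and 49.6 in epididymis, and 37.3, 110 and 39.1 in brain. Each testis library lay below every library of the other organs, while epididymis and brain overlapped. Means were 12.6 ± 19.6, 92.4 ± 39.9 and 62.3 ± 41.7, and the epididymis mean was 7.34-fold the testis mean. The fitted log2 fold was -4.10 (SE 1.36) for testis against epididymis and -3.46 against brain, and these became -2.94 and -2.29 without testis replicate 2, which had no read. Without testis replicate 1 they became -5.52 and -4.88. With edgeR they were smaller in size, at -2.91 and -2.375, as with DESeq2, at -2.89 and -2.32. The fibroblast and peritubular genes, markers of cells known to make MMP2, summed to 271 to 347 in testis, 48.2 to 202 in epididymis and 31.9 to 66.9 in brain. Their part in the Mmp2 values was not tested.

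Mmp12 (chromosome 9 from 7344381 to 7369499), the macrophage elastase, stood at 245, 166 and 84.6 normalised reads in testis, 126, 112 and 22.6 in epididymis and 42.8, 100 and 49.8 in brain. All organ pairs overlapped. Its log2 fold was 1.12 (SE 0.75) for testis against epididymis and 1.32 for testis against brain, and the first was 0.34 without epididymis replicate 3. The gene shares 157 of its 7237 exonic bases with Mmp1b on the opposite strand. Reads inside that stretch cannot be assigned to either gene by strand, because the library kit does not mark it. Mmp1b is not among the genes with values.

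Mmp9 (chromosome 2 from 164940780 to 164955850) encodes gelatinase B, a product of neutrophil granules as well as macrophages. It had 40 reads in testis replicate 1, 6 in brain replicate 1 and none in the other 7 libraries, and was below the filter for testing. Of the 9 neutrophil genes in the table, S100a8, S100a9, Ngp, Camp, Ltf, Retnlg and Ly6g were at 0 in every testis library. The other two were not: Cxcr2 stood at 256, 144 and 209 normalised reads in testis, highest in the library that held the Mmp9 reads, and Csf3r at 0, 8.89 and 9.40. The 9 genes summed to 153 to 256 in testis, 190 to 405 in epididymis and 478 to 812 in brain, and the part of neutrophils in the Mmp9 reads was not tested.

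Of the 3 ADAM genes, Adam17 had the highest level per length in each organ. It lies on chromosome 12 from 21323509 to 21373632 and encodes the TNF-converting enzyme, the main sheddase of TNF and its receptors. Its values were 1446, 1592 and 1547 normalised reads in testis, 2102, 3145 and 3100 in epididymis, and 1749, 1983 and 1964 in brain. All 3 organs lay apart from each other, in the order epididymis, brain, testis. The differences were small in size, with log2 folds of -0.84 for testis against epididymis, -0.31 for testis against brain and 0.53 for epididymis against brain (SE 0.20). Adam17 shares 311 exonic bases with Iah1 on the opposite strand, which was not analysed here. Reads inside this stretch cannot be assigned by strand, as for Mmp12. The same holds for 46 exonic bases that Adam8 shares with Gm16201 on the opposite strand.

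Adam10 (chromosome 9 from 70678997 to 70780229), the sheddase that starts Notch cleavage and acts as the alpha-secretase of the amyloid precursor, did not separate the organs. It stood at 135, 367 and 165 normalised reads in testis, 262, 383 and 458 in epididymis and 421, 270 and 502 in brain. Each pair of organs overlapped, with log2 folds of -0.83, -0.93 and -0.10 (SE 0.41) for testis against epididymis, testis against brain and epididymis against brain.

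Adam8 (chromosome 7 from 139978932 to 139992562) encodes a sheddase of leukocytes. It stood at 120, 62.2 and 41.0 normalised reads in testis, 133, 28.1 and 35.6 in epididymis, and 10.9, 0 and 0 in brain, where all 12 reads fell in replicate 1. Testis and epididymis overlapped and both lay above brain. The fitted log2 folds against brain were 4.91 for testis and 4.51 for epididymis (SE 1.43). They were 6.10 and 5.71 without brain replicate 1, and 4.31 and 3.92 without brain replicate 2 or 3. The second was 3.84 without epididymis replicate 1. The genes most like it were Mki67, a marker of dividing cells (r = 0.977), Hyal5 (0.973) and the chemokine gene Ccl5 (0.971), as a description over the same 9 libraries. The T and NK cell genes in the table summed to 603 to 870 in testis, 103 to 199 in epididymis and 81.1 to 155 in brain, and the monocyte genes to 6305 to 9156, 1408 to 3231 and 382 to 701. Their part in the Adam8 values was not tested.

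Timp2 (chromosome 11 from 118301069 to 118355740), the inhibitor, had the smallest range of fitted folds of the 8 tested genes. It stood at 2966, 2303 and 1844 normalised reads in testis, 1331, 2104 and 2641 in epididymis and 2110, 1886 and 2682 in brain, with overlap between every pair of organs. Its log2 folds were 0.26 for testis against epididymis, 0.08 for testis against brain and -0.18 for epididymis against brain (SE 0.26).

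The genes most like the other members, again by Pearson's r over the 9 libraries and as a description, were led by Il10ra (0.961), a chain of the interleukin 10 receptor, for Mmp14. Il10ra stood at 754 ± 179 in testis, 1135 ± 166 in epididymis and 792 ± 140 in brain. For Adam17 the first was Hoxb3 (0.955), a homeobox gene at 0.269 ± 0.466, 51.5 ± 29.9 and 4.83 ± 3.60. The first was Rnf122 (0.953) for Adam10, Dcun1d2 (0.978) for Mmp2, Vti1b (0.969) for Mmp12 and Med9 (0.965) for Timp2.

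**Figure D3:**
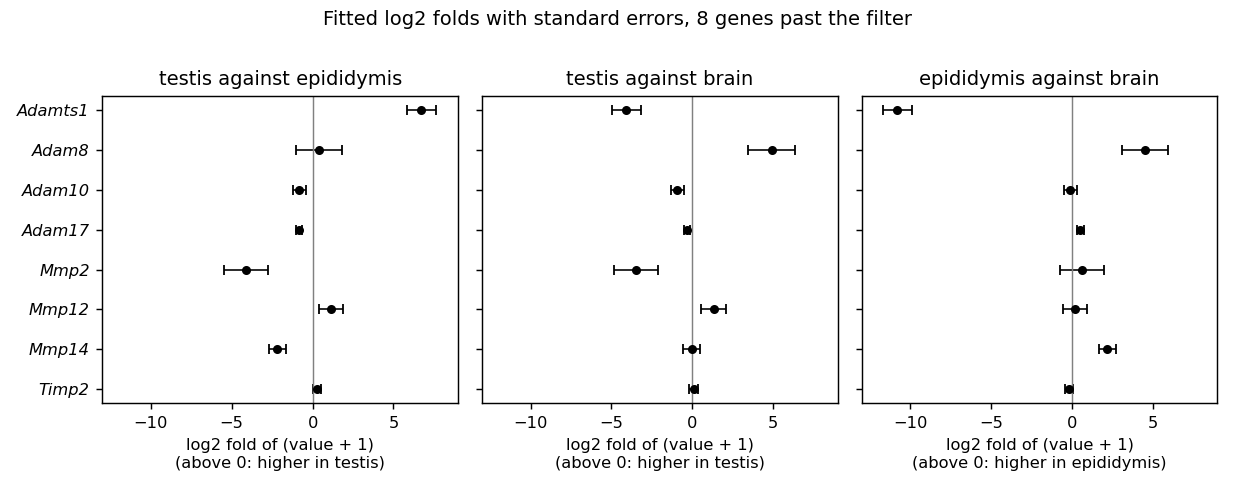
Fitted log2 fold of (value + 1) with its standard error (horizontal axes) for the 8 tested genes in the 3 comparisons of organs. The widest departures are those of Adamts1 (6.73, -4.07 and -10.81, where the folds against epididymis rest on a group at 0), while Timp2 stays within 0.26 of 0.

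Counted over the 9 genes, testis against epididymis had 1 gene wholly higher in testis (Adamts1), 3 wholly higher in epididymis (Adam17, Mmp2 and Mmp14) and 5 with overlap. In that comparison 19.8% of all tested genes did not overlap, and the limma test (called at a Benjamini-Hochberg adjusted p below 0.05) put 2.49% of them higher in testis and 1.9% higher in epididymis. Testis against brain had 1 higher in testis (Adam8), 3 higher in brain (Adamts1, Adam17 and Mmp2) and 5 with overlap, beside 30.8% of tested genes without overlap, 6.82% called higher in testis and 4.83% called higher in brain. Epididymis against brain had 3 higher in epididymis (Adam8, Adam17 and Mmp14), 1 higher in brain (Adamts1) and 5 with overlap, beside 22%, 2.99% and 1.8%. Since these contrasts chose the genes, nothing is read from the counts.

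Levels can be compared between genes per kilobase of exon. Timp2 was the highest of the 9 in each organ by its mean, at 609 normalised reads per kb in testis, 520 in epididymis and 571 in brain. Adam17 followed in testis (214) and epididymis (389), and its range overlapped that of Timp2 in epididymis. In brain Adamts1 was next to Timp2, at 346 per kb (250 to 419), overlapping Adam17 at 265 (244 to 277). Adam10 came next in brain and testis, at 80.9 and 45.2, and Mmp14 took that place in epididymis, at 116 (81.7 to 140), overlapping Adam10 at 74.8 (53.3 to 93.3). Mmp2, Mmp9, Mmp12 and Adam8 had means of at most 27.4 per kb in any organ.

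**Figure D4:**
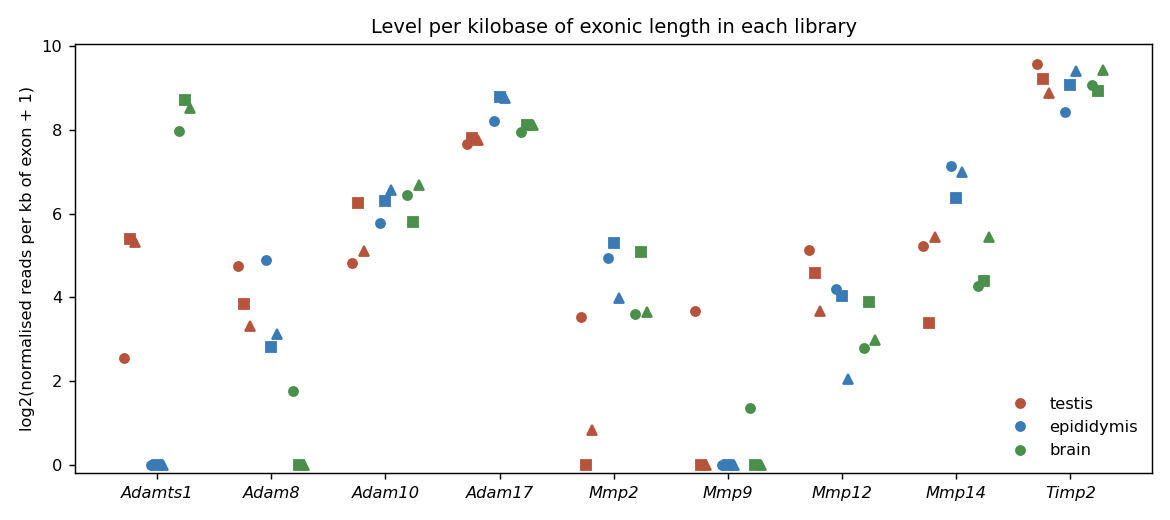
log2(normalised reads per kb of exon + 1) of the 9 genes in each library, coloured by organ (circles, squares and triangles are replicates 1, 2 and 3). Adamts1 runs from 0 in epididymis to 346 per kb on average in brain. The organ means of Timp2 lie between 520 and 609, and its single libraries between 342 and 761.

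The other genes of the pathway were counted by lists of their roles. Of 110 such genes in the table, 73 passed the filter. In testis against epididymis, 1 was higher in testis (1.37%) and 7 were higher in epididymis (9.59%), beside 2.49% and 1.9% of all tested genes. With libraries rescaled to the same total these counts were 0 and 8. In testis against brain, 5 were higher in testis (6.85%) and 9 in brain (12.3%), beside 6.82% and 4.83%. In epididymis against brain, 3 were higher in epididymis (4.11%) and 6 in brain (8.22%), beside 2.99% and 1.8%. The lists were chosen with earlier results of these data known, so these shares are a description. The median log2 fold over the 73 was 0.41, -0.03 and -0.31 in these comparisons, beside 0.10, -0.07 and -0.13 over all tested genes. The medians were the same to these digits with genes that had no read in an organ at the bound of 3 reads per library. Comparisons share libraries, so they are not independent of one another. The count for testis against epididymis was 4 without epididymis replicate 2 or 3 and 5 without epididymis replicate 1 or testis replicate 3. For epididymis against brain the larger count toward brain was not kept in each leave-out. The split was 3 higher in epididymis and 1 in brain without epididymis replicate 2 or brain replicate 2, 3 and 2 without epididymis replicate 1 or brain replicate 1, and 4 and 2 without brain replicate 3. It was 3 and 2 without the variance trend. Without the variance trend of limma, 2 of the 8 calls between testis and epididymis held, those of Adam7 and Trem2, with an adjusted p of 0.0595 to 0.302 for the rest.

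None of the 6 tested other MMPs passed in any comparison, and the largest of them, Mmp24, stood at 251, 236 and 133 normalised reads in testis, 152, 3.75 and 28.0 in epididymis and 14.6, 82.5 and 26.7 in brain. At an unadjusted p below 0.05 these MMPs had 1, 2 and 1 genes in the 3 comparisons, edgeR called none and DESeq2 called 1, in testis against brain. The pathway as a whole had 16, 26 and 20 genes at that level (21.9%, 35.6% and 27.4%), beside 17.5%, 23.4% and 16.4% of all tested genes. Of 7 tested other ADAMs, Adam19 and Adam15 passed. Adam19, a sheddase of neuregulin, stood at 873, 1005 and 926 in testis, 255, 261 and 763 in epididymis, and 18.2, 19.0 and 28.4 in brain. It was higher in testis than in brain (a log2 fold of 5.38 with an SE of 0.45, limma adjusted p = 1.2e-06) and higher in epididymis than in brain (4.05, limma adjusted p = 6.1e-05), with no overlap. Adam15 was lower in testis than in brain (a log2 fold of -0.83 with an SE of 0.24, limma adjusted p = 0.031), a call lost without testis replicate 2 or 3 or brain replicate 2 or 3 (adjusted p of 0.089, 0.1, 0.079 and 0.12).

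Of 4 tested germ cell and epididymal ADAMs, Adam7 passed. This gene is known from the epididymal epithelium, whose marker list also holds it, and it stood at 0, 16.2 and 0 normalised reads in testis, 176, 294 and 112 in epididymis and 0 in brain. It was at least 66.6-fold higher in epididymis than in brain (limma adjusted p = 0.0091). Against testis the limma adjusted p was 0.034, and the call was lost without each library other than testis replicate 2, at up to 0.13 without testis replicate 3, with edgeR (adjusted p = 0.12) and with DESeq2 (adjusted p = 0.27).

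Of 6 tested ADAMTS and ADAMTS-like genes beside Adamts1, Adamtsl4, an ADAMTS-like protein gene of the fibrillin matrix, passed. It stood at 344, 706 and 196 normalised reads in testis, 405, 370 and 764 in epididymis and 979, 1447 and 2438 in brain. It was lower in testis than in brain (a log2 fold of -2.06 with an SE of 0.44, limma adjusted p = 0.0056). It was lower in epididymis than in brain too (-1.64, limma adjusted p = 0.044), which was lost without epididymis replicate 1 or 2 or brain replicate 2 or 3 (adjusted p of 0.14, 0.16, 0.099 and 0.18). Adamts1 and Adamtsl4 were thus both highest in brain, but Adamtsl4 was present in epididymis at a level that overlapped testis.

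Among 5 tested other inhibitors and clearance receptors, those that passed included the serpin Serpine2 and the uptake receptor Lrp1. Serpine2, protease nexin 1, an inhibitor of thrombin, stood at 1.04, 67.1 and 1.71 normalised reads in testis, 491, 661 and 413 in epididymis and 2919, 2470 and 3490 in brain. It was lower in testis than in epididymis (a log2 fold of -6.15 with an SE of 0.91, limma adjusted p = 0.001) and than in brain (-8.67, limma adjusted p = 1.1e-05). Lrp1, which takes up protease and inhibitor complexes, averaged 769 ± 184 in testis against 2124 ± 57.8 in brain, a log2 fold of -1.49 (SE 0.21) with a limma adjusted p of 0.00017. Serpine2 and Lrp1 were lower in testis than in brain, whereas Timp2 overlapped between the organs.

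Of 9 tested partners of ADAM10 and ADAM17, 2 tetraspanins that escort ADAM10 passed. Tspan14 stood at 266, 521 and 718 normalised reads in testis, 1003, 932 and 1118 in epididymis and 2231, 2000 and 2594 in brain. It was lower in testis than in brain (a log2 fold of -2.28 with an SE of 0.30, limma adjusted p = 9.2e-05). Its steps between testis and epididymis (limma adjusted p = 0.044) and between epididymis and brain (0.036) were lost in most leave-outs, the first without each library other than testis replicate 3 (up to 0.14 without testis replicate 1) and the second without each epididymis or brain library (up to 0.12 without epididymis replicate 2). Tspan17 went the other way, at 66.3, 120 and 180 in testis, 52.7, 24.4 and 0 in epididymis and 0 in brain, at least 41.8-fold higher in testis than in brain (limma adjusted p = 0.013). The iRhom genes Rhbdf1 and Rhbdf2 and Frmd8, whose products carry ADAM17 to the cell surface, did not pass limma, edgeR or DESeq2 in any comparison, with 0, 0 and 1 at an unadjusted limma p below 0.05.

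**Figure D5:**
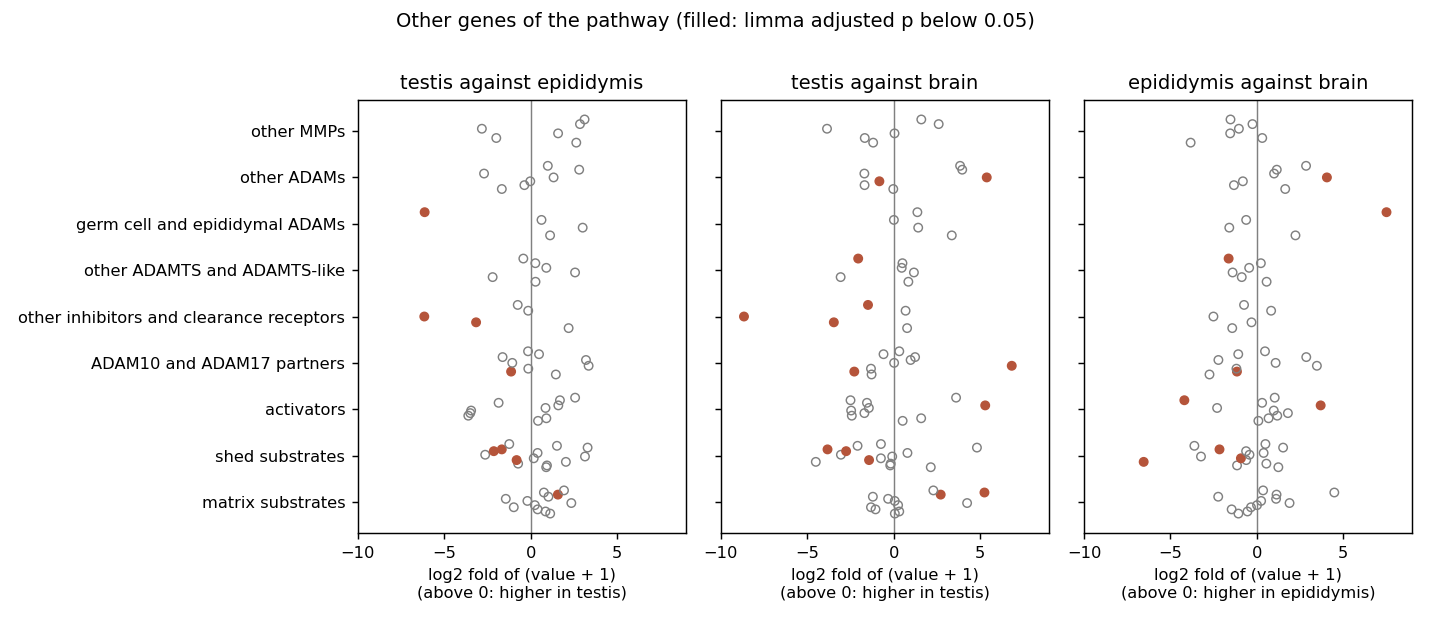
Log2 fold of (value + 1) of the 73 tested other genes (1 point each), by list (vertical) and comparison (panels); filled points passed limma at an adjusted p below 0.05. The 6 other MMPs hold no filled point, and the 14 calls of testis against brain divide into 5 above 0 and 9 below.

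Among 10 tested activators and docking proteins, Cd44, the hyaluronan receptor that anchors MMP9 and MMP14, stood at 510, 542 and 439 normalised reads in testis, 131, 252 and 129 in epididymis and 13.7, 36.8 and 2.67 in brain. It was higher than in brain both in testis (a log2 fold of 5.29 with an SE of 0.74, limma adjusted p = 0.00017) and in epididymis (3.69, limma adjusted p = 0.0079). Itgb3, an integrin chain, was lower in epididymis than in brain (-4.20, limma adjusted p = 0.043), which held without testis replicate 1 or epididymis replicate 3 and was lost without each of the other 7 libraries (up to 0.19 without brain replicate 3). Furin, the convertase that removes prodomains, stood at 878, 966 and 884 in testis, 665, 491 and 939 in epididymis and 650, 641 and 617 in brain, and did not pass.

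Of 14 tested substrates of shedding, all calls were toward lower values in testis, or in epididymis against brain. Trem2, a lipid receptor shed by ADAM10 and ADAM17, stood at 549, 481 and 408 normalised reads in testis, 2372, 1698 and 2253 in epididymis and 3232, 3096 and 3332 in brain. Its log2 fold was -2.13 for testis against epididymis and -2.76 for testis against brain (SE 0.20, limma adjusted p = 4.9e-05 and 5.7e-07). Mertk, an ADAM17 substrate that binds dying cells, fell from 5231 ± 1202 in brain to 1168 ± 305 in epididymis and 378 ± 149 in testis. Its log2 fold was -1.67 for testis against epididymis, -3.83 for testis against brain and -2.16 for epididymis against brain, with limma adjusted p of 0.0037, 6.1e-07 and 0.00041. Csf1r, the receptor on which macrophages depend, was lower in testis than in brain (-1.43, limma adjusted p = 4.2e-05) and than in epididymis (-0.81, limma adjusted p = 0.014, but 0.065, 0.07 and 0.076 without testis replicate 3, epididymis replicate 2 and epididymis replicate 3). Trem2, Mertk and Csf1r thus had testis as their lowest organ, as Adam17 did. Their highest organ was brain, and that of Adam17 was epididymis. The summed macrophage identity genes, Csf1r among them, and the summed microglia genes were lowest in testis too. Tnf, the substrate for which ADAM17 is named, stood at 218, 106 and 248 in testis, 52.7, 116 and 141 in epididymis and 12.8, 63.5 and 75.5 in brain, and did not pass.

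In the same list, Csf1 had no read in epididymis and 116, 54.6 and 126 normalised reads in brain, at least 33.8-fold higher there (limma adjusted p = 0.021). That call was lost without any epididymis or brain library (up to 0.086 without brain replicate 1). Il6ra was lower in epididymis than in brain (log2 fold -0.93, limma adjusted p = 0.034), which was lost without epididymis replicate 2 or 3 or brain replicate 1 or 2 (adjusted p of 0.14, 0.12, 0.15 and 0.11).

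Of 12 tested matrix substrates, 2 passed. Sdc4, a surface heparan sulphate proteoglycan that ADAMTS1 can cut, stood at 502, 559 and 521 normalised reads in testis, 141, 204 and 189 in epididymis and 117, 60.2 and 71.1 in brain. It was higher in testis than in brain (a log2 fold of 2.72 with an SE of 0.39, limma adjusted p = 0.00022) and than in epididymis (1.58, limma adjusted p = 0.031, lost without each testis or epididymis library, at up to 0.12 without testis replicate 2). Dcn, the proteoglycan decorin of fibroblasts, stood at 73.5, 16.2 and 41.9 in testis and 0 in brain (limma adjusted p = 0.032), a call that was lost without testis replicate 1 or 3 or any brain library (up to 0.1). Versican, a main substrate of ADAMTS1, was low, with Vcan at 0, 21.8 and 37.6 in testis, 0, 1.88 and 28.0 in epididymis and 20.9, 3.34 and 7.11 in brain, and did not pass.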

How the data were processed

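The deposited signal values are normalised reads. The values show that the authors' figures are each gene's reads divided by 1 factor for the library. The submitters' processing notes name CASAVA 1.8, Bowtie2 2.2.1, Partek 6.6, DESeq2 and mm10, and what each tool did, the counting rule and the annotation are not given there. The TruSeq v2 kit, used with 10 ng of RNA per the labels' protocols, does not mark strand. Those protocols mention pooling of testis and epididymis suspensions in unclear wording, and organs are used as labelled. All values (100%) were whole multiples of 1 read's worth, within 0.001 reads, and whole reads were recovered by division. Depth was 2727092 to 4458688 reads per library.

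Values were analysed as log2(value + 1) with limma 3.58.1 (R 4.3.3), with a variance trend and 1 mean per organ over all 9 libraries. Genes at 10 or more in at least 3 libraries were tested (11766), and called at a Benjamini-Hochberg adjusted p below 0.05. The fit was also run on simulated counts in which well-counted genes were changed in testis. That run was not built to cover genes without reads in an organ, and no result here rests on it. Members and lists were chosen with earlier results of these data known. Named genes were all members, up to 4 called genes per list, comparison and direction, and the 5 (Adamts1) or 3 genes most like each tested member. Other genes named are there for their role and were chosen after their values were seen. Alternatives were a pseudocount of 5, no filter, equal totals, no trend, 6-library fits, leaving out each library, and edgeR 4.0.16 and DESeq2 1.42.0 on the recovered reads. The result of 1 called gene is not reported here.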

Additional observations from a re-analysis of the deposited data

How the results depend on the processing

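Genes called numbered 516 for testis against epididymis, 1371 for testis against brain and 564 for epididymis against brain. Without the variance trend these were 192, 837 and 306, and with DESeq2 on recovered reads 789 and 921 for the first and the last. With only the 6 libraries compared, the first was 250. Leaving out each library gave 274 to 450, 821 to 1459 and 332 to 620, and the first fell to 326 without testis replicate 1, 285 and 322 without replicates 2 and 3, and 274 and 289 without epididymis replicates 2 and 3. The second fell to 821 and 854 without brain replicates 1 and 2, and the third to 332, 337 and 375 without brain replicates 1 and 2 and epididymis replicate 1. Rescaling to the same total turned the split of 293 higher and 223 lower in testis to 225 and 307 against epididymis, and 803 and 568 to 652 and 773 against brain. The split against epididymis also turned without testis replicate 1 (145 and 181), 2 (115 and 170) or 3 (137 and 185). Rescaling moved the median log2 fold of all genes from 0.10 to -0.05, -0.07 to -0.29 and -0.13 to -0.19.

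Other pathway genes called numbered 8, 14 and 9. Without the trend the first and last were 2 and 5, with the 6 libraries the first was 3, and with DESeq2 the last was 17. Leave-outs gave 4 to 6, 13 to 16 and 4 to 10. Of 31 calls, 19 held in every leave-out, 18 without the trend, 22 with the 6 libraries and 27 with edgeR. Without the trend, calls lost against brain were Adam15 (limma adjusted p = 0.254) and Adamtsl4 (0.0936) in testis, and Adamtsl4, Cd44, Il6ra, Itgb3 and Tspan14 in epididymis (0.0635 to 0.301). With the 6 libraries, calls lost in testis against epididymis included Adam7, Csf1r, Serpine2 and Tspan14 (0.055 to 0.163). Adamtsl4, Cd44, Il6ra and Itgb3 were lost in epididymis against brain (0.0705 to 0.126). Of 384 recomputed member folds, 376 moved by less than the spread between libraries. Many of these could not move. Dropping the filter or the trend, fitting the 6 libraries or leaving out a library of the organ not compared leaves a fold unchanged by construction. Of all 384, 16 changed sign: Timp2 in each comparison, Adam8 in testis against epididymis, Mmp14 in testis against brain, and Adam10 and Mmp12 in epididymis against brain, whose main folds lay between -0.18 and 0.39. The 8 folds that moved by more were 6 of Adamts1 against an epididymis at 0 and 2 of Mmp14. Those of Adamts1 in testis against epididymis were 4.50 with a pseudocount of 5, 10.32 with edgeR and 9.70 with DESeq2. In epididymis against brain they were -8.49, -13.95 and -13.32. For the Adamts1 values the pseudocount or prior count sets the size. The cause of the other changes was not tested. The floor of 3 reads is about the upper limit, at a confidence level of 95%, for a count of 0 in a single library. No paired analysis was possible because the labels give no replicate numbers shared between organs.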
